A study of Rattus norvegicus with 320 samples.

Results

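The 5 candidate miRNAs rno_miR_chr7_38540, rno_miR_chr5_34126, rno_miR_chr7_40035, rno_miR_chrX_48159 and rno_miR_chr19_20934, were followed in rat brain from the second week of life to old age, and then in the other organs. They are 5 of the 616 miRNAs in a read count table of 604 known miRNAs and 12 candidates, and they are the candidates that the study assigned to brain. That assignment was made on these same libraries, because each candidate had to be higher in brain than in every other organ at each of the 4 ages. Differences between brain and the other organs are therefore given as a description, without a test. The brain level at every age entered that choice, so a candidate lost from brain at some age could not be among the 5. Differences between ages or sexes within brain were not part of the choice and were tested.

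The study sequenced small RNA from 320 samples of 11 organs of untreated, pair-housed Fischer 344 rats (written Fisher 344 in the sample labels). Rats of both sexes were sampled at 2, 6, 21 and 104 weeks of age, with 4 rats per sex and age, and each rat gave 10 organs. Each whole organ was ground to powder before RNA was extracted, so a brain library holds the neurons, glia, vessels, choroid plexus and blood of an entire brain. Because these are bulk samples, fewer cells of a type and less RNA per cell cannot be told apart.

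A miRNA is a short RNA cut from a hairpin precursor, and it directs the RNA-induced silencing complex to mRNAs that pair with its seed, the bases 2 to 8 from its 5′ end. The brain is known for a large and distinctive miRNA repertoire, in which miR-124 and miR-9 mark neurons and neural progenitors and miR-219 and miR-338 mark the oligodendrocytes that make myelin. This repertoire changes while neurons mature and myelin forms after birth. A candidate miRNA is a sequence whose reads stack on a predicted hairpin in the way of a processed miRNA, and the sources used here name no target or function for the 5.

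The mature sequences are printed because they are what was counted, with the seed in capitals. Seeds were compared only with the count table and with the RefSeq annotation of the rat. A family known from other species would not be seen in this way. They are written 5′ to 3′ as deposited, with U for uracil.
rno_miR_chr7_38540: uUUCCUCUcugccccauagggug
rno_miR_chr5_34126: cACAGCGGagcugggcacuggcgu
rno_miR_chr7_40035: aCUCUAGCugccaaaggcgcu
rno_miR_chrX_48159: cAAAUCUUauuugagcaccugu
rno_miR_chr19_20934: uCUCUCUUccuccucacugugga

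No candidate shared its seed with any other of the 616 miRNAs of the table, whereas 26.0% of the 604 known miRNAs shared theirs with at least 1 other row. The 5 also shared no seed among themselves, and the longest stretch common to any pair of them was 6 bases, between rno_miR_chr7_38540 and rno_miR_chr19_20934. In length they ran from 21 to 24 bases, beside a median of 22 for the known miRNAs. By their names, 2 of them lie on chromosome 7 and the others on chromosomes 5, 19 and X. The study's list of candidates carries an alert for piRNA, another class of small RNA, at rno_miR_chr7_40035 and rno_miR_chr19_20934. The part of piRNA in their reads was not tested. The precursors and their positions were not analysed here.

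Both rno_miR_chr7_38540 and rno_miR_chr19_20934 were rich in pyrimidines. C and U made up 69.6% of the bases of rno_miR_chr7_38540, a share that 33 of the 604 known miRNAs reached or exceeded. For rno_miR_chr19_20934 the share was 78.3%, reached or exceeded by 9 known miRNAs, and the median of the known miRNAs was 52.1%. One mature miRNA of the RefSeq annotation (build GRCr8) that is not in the count table carried the seed of rno_miR_chr7_38540. It is the passenger strand of miR-185, at chr11:96169085-96169103 on the plus strand, and the lines below show that the likeness ends with the seed.
rno_miR_chr7_38540: uUUCCUCUcugccccauagggug
rno-miR-185-3p: uUUCCUCUgguccuucucu

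Longer stretches were shared with known miRNAs, but not at the same position in both. The lines below show 3 of these pairs with the common stretch in capitals. rno_miR_chr5_34126 begins with 9 bases that stand at position 7 of miR-124-5p, the passenger strand of the neuronal miR-124.
rno_miR_chr5_34126: CACAGCGGAgcugggcacuggcgu
rno-miR-124-5p: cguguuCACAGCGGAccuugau
rno_miR_chr7_38540 held 11 bases in common with miR-328a-3p.
rno_miR_chr7_38540: uuuCCUCUCUGCCCcauagggug
rno-miR-328a-3p: cuggcCCUCUCUGCCCuuccgu
rno_miR_chrX_48159 held 10 bases in common with miR-325-3p.
rno_miR_chrX_48159: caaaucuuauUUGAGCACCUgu
rno-miR-325-3p: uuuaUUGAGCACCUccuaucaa
Stretches of this length are not rare in the table. Among the known miRNAs, 53.6% shared at least 9 bases in a row with another known miRNA, 30.3% at least 10 and 20.5% at least 11. These shares also count pairs of the same family, whereas no candidate shared its seed with another row.

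Replicate 3 of the male brains at week 6 and replicate 4 of the female spleens at week 104, which the study removed, were left out here as well, and their values are given in the closing section. The study removed them because they clustered with uterus and not with their own organ. The libraries that remained, 31 of brain and 287 of other organs, held 315550 to 10571766 reads, and those of brain held 1164462 to 4958803. The smallest brain library, replicate 4 of the females at week 104, is also the one in which the study saw an unusually low share of miRNA reads. The label brain was checked against 6 marker miRNAs. For miR-124-3p, miR-9a-5p, miR-9a-3p, miR-128-3p and miR-219a-5p, every brain library lay above every library of another organ, and for miR-338-3p the lowest brain library (368 CPM) lay below the highest other library (698 CPM).

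Levels are given as CPM, the reads of a miRNA per 1000000 miRNA reads of its library. By mean level over the 31 brain libraries, rno_miR_chr7_38540 ranked 190th of the 616 miRNAs with 155 ± 94.1 CPM (SD, n = 31). The next were rno_miR_chr5_34126 in rank 298 with 31.2 ± 12.3 CPM and rno_miR_chr7_40035 in rank 308 with 27.0 ± 20.1 CPM. rno_miR_chrX_48159 ranked 362nd with 13.4 ± 3.81 CPM, and rno_miR_chr19_20934 ranked 486th with 1.89 ± 1.06 CPM. The reads behind these means differed accordingly, from 448 reads per brain library on average for the first candidate to 41.9 for the fourth and 5.87 for the fifth. The order between rno_miR_chr5_34126 and rno_miR_chr7_40035 does not exceed their spread, and at 2 weeks it was the opposite one.

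**Figure D1:**
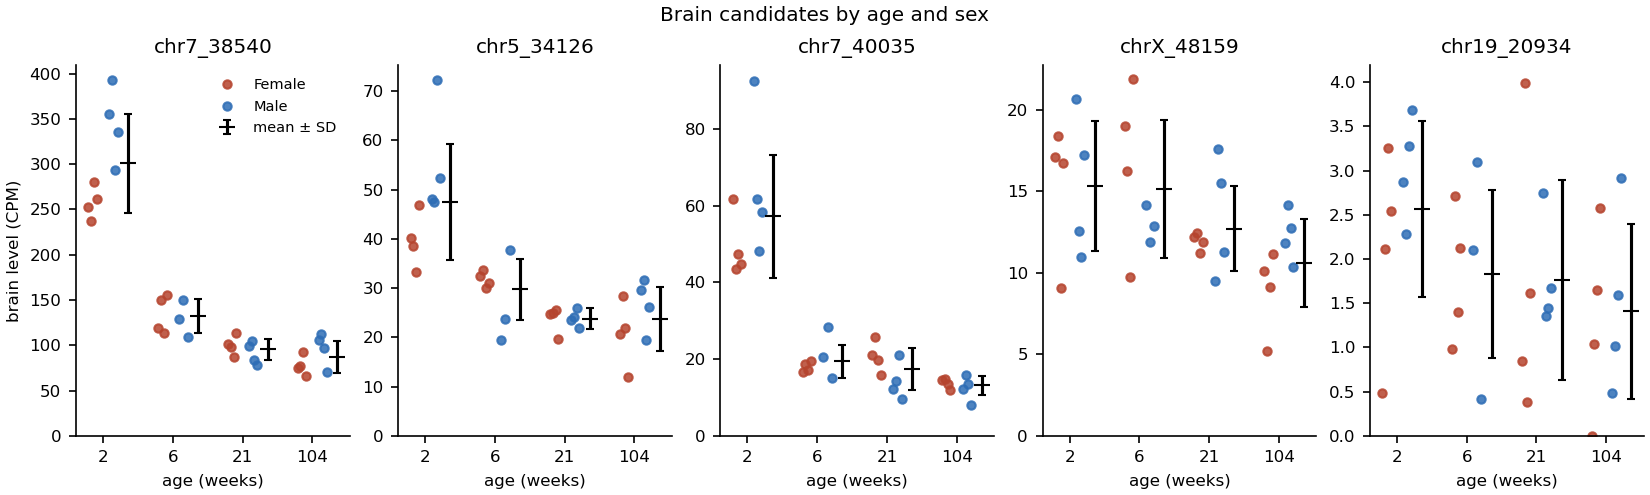
Levels of the 5 candidates in brain, in CPM (linear axes from 0), at 2, 6, 21 and 104 weeks. Each point is a library, red for females and blue for males, and the black bar is the mean ± SD of the 8 libraries of an age (7 at week 6). The 8 libraries of week 2 stand apart for the chromosome 7 candidates, and the ages overlap for rno_miR_chrX_48159 and rno_miR_chr19_20934.

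The first question within brain was how the candidates change with age. Of the 5 candidates, 3 were lower in old than in juvenile brain, most of the decline lay between weeks 2 and 6, and the remaining candidates did not pass the test. Over the whole table, 26.0% of the 616 miRNAs passed as lower at week 104. The decline was steepest for the chromosome 7 candidates, rno_miR_chr7_40035 (3.20-fold lower at week 104 than at week 2) and rno_miR_chr7_38540 (2.57-fold lower), and smaller for rno_miR_chr5_34126 (1.45-fold lower).

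In the week 2 brains, rno_miR_chr7_38540 was at 237, 252, 262 and 280 CPM in the females and at 293, 335, 355 and 393 CPM in the males. At week 6 the 7 libraries lay between 109 and 155 CPM, with a median of 130. The 8 libraries of week 21 lay between 77.9 and 113 CPM, with a median of 98.6, and the 8 of week 104 between 66.1 and 112 CPM, with a median of 84.9. The week 2 brains thus all lay above every later brain, while weeks 6, 21 and 104 overlapped with their neighbours. From week 2 to week 6 the log2 fold change was -0.90 ± 0.11 (SE, adjusted p = 1.7e-07), and from week 2 to week 104 it was -1.36 ± 0.11 (adjusted p = 1.8e-11). These and the following adjusted p-values come from edgeR's quasi-likelihood test on the 31 brain libraries with trimmed mean of M-values (TMM) scaling, with Benjamini-Hochberg adjustment over all 616 miRNAs.

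After week 6 the steps of rno_miR_chr7_38540 were small. It was -0.29 ± 0.11 in log2 from week 6 to week 21 (edgeR adjusted p = 0.065) and -0.17 ± 0.11 from week 21 to week 104 (adjusted p = 0.42). The first of these steps passed the threshold with library size scaling (adjusted p = 0.0024), with DESeq2 (0.035) and among miRNAs with a mean brain count of at least 10 (0.041).

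rno_miR_chr7_40035 had the larger early drop. Its week 2 levels were 43.4, 44.7, 47.4 and 61.6 CPM in the females and 48.1, 58.4, 61.6 and 92.3 CPM in the males. By week 6 the 7 libraries lay between 14.95 and 28.4 CPM with a median of 18.7, at week 21 between 9.63 and 25.8 with a mean of 17.4 ± 5.36, and at week 104 between 8.10 and 15.8 with a mean of 13.1 ± 2.40 (SD, n = 8). Every week 2 brain lay above every later one, and weeks 6 and 21 covered much the same range. The log2 fold change was -1.25 ± 0.16 (SE) from week 2 to week 6 (edgeR adjusted p = 1.6e-07) and -1.68 ± 0.15 from week 2 to week 104 (adjusted p = 2.3e-10). The later steps, -0.04 ± 0.16 to week 21 (adjusted p = 0.91) and -0.39 ± 0.16 from there to week 104 (adjusted p = 0.18), did not pass.

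rno_miR_chr5_34126 changed less and less evenly. It was at 33.3, 38.6, 40.1 and 46.9 CPM in the week 2 females and at 47.5, 48.2, 52.3 and 72.2 CPM in the week 2 males. Week 6 covered 19.4 to 37.8 CPM with a mean of 29.8, and week 21 was narrow, at 19.6 to 26.0 CPM with a mean of 23.8 ± 2.11 (SD, n = 8). At week 104 the mean was again 23.8, with a wider range of 12.0 to 31.7 CPM, in which the lowest value came from the smallest brain library. All 8 juvenile brains were above all 8 old brains in CPM, and weeks 2 and 6 overlapped.

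In the model the decline of rno_miR_chr5_34126 from week 2 to week 104 was -0.54 ± 0.16 (SE, edgeR adjusted p = 0.0048), and the step from week 2 to week 6 was -0.40 ± 0.16 (adjusted p = 0.051). The early step passed with library size scaling (-0.68, adjusted p = 0.00047), with DESeq2 (-0.47, 0.0087), among miRNAs with a mean brain count of at least 10 (-0.54, 0.0065) and with all 32 brain libraries (-0.46, 0.026). It also passed without replicate 4 of every group (-0.53, edgeR adjusted p = 0.0043) and without replicate 4 of the week 104 females alone (-0.50, 0.0035), but not with lane as a covariate (-0.56, 0.17). The setting with all 32 libraries adds the removed week 6 library, which lay below its group (13.4 against 19.4 to 37.8 CPM). That setting therefore gives no separate support for the early step. The decline to week 104 did not pass without replicate 3 of every group (-0.45, edgeR adjusted p = 0.052). The steps after week 6 were -0.14 ± 0.16 and 0.00 ± 0.16 (adjusted p = 0.59 and 1.0).

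The remaining candidates gave no call with age. rno_miR_chrX_48159 was at 9.05 to 20.6 CPM at week 2, 9.76 to 21.9 at week 6, 9.47 to 17.6 at week 21 and 5.20 to 14.2 at week 104. These ranges overlap at every age, with means of 15.3 ± 4.01, 15.1 ± 4.23, 12.7 ± 2.60 and 10.6 ± 2.69 CPM (SD). The edgeR log2 fold change from week 2 to week 104 was -0.15 ± 0.17 (SE, adjusted p = 0.50), and with library size scaling it was -0.57 ± 0.19 (adjusted p = 0.013), so for this candidate the call depends on the scaling.

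rno_miR_chr19_20934 was counted at 0 to 17 reads per brain library. Its mean was 2.57 ± 1.00 CPM at week 2, 1.83 ± 0.95 at week 6, 1.76 ± 1.13 at week 21 and 1.41 ± 0.99 at week 104 (SD). The ages overlap throughout, and a single brain library, replicate 1 of the week 104 females, had no read of it. The log2 fold change from week 2 to week 104 was -0.46 with a standard error of 0.45 (edgeR adjusted p = 0.42). Its 95% interval ran from -1.34 to 0.43 and so held the value of -0.54 found for rno_miR_chr5_34126.

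**Figure D2:**
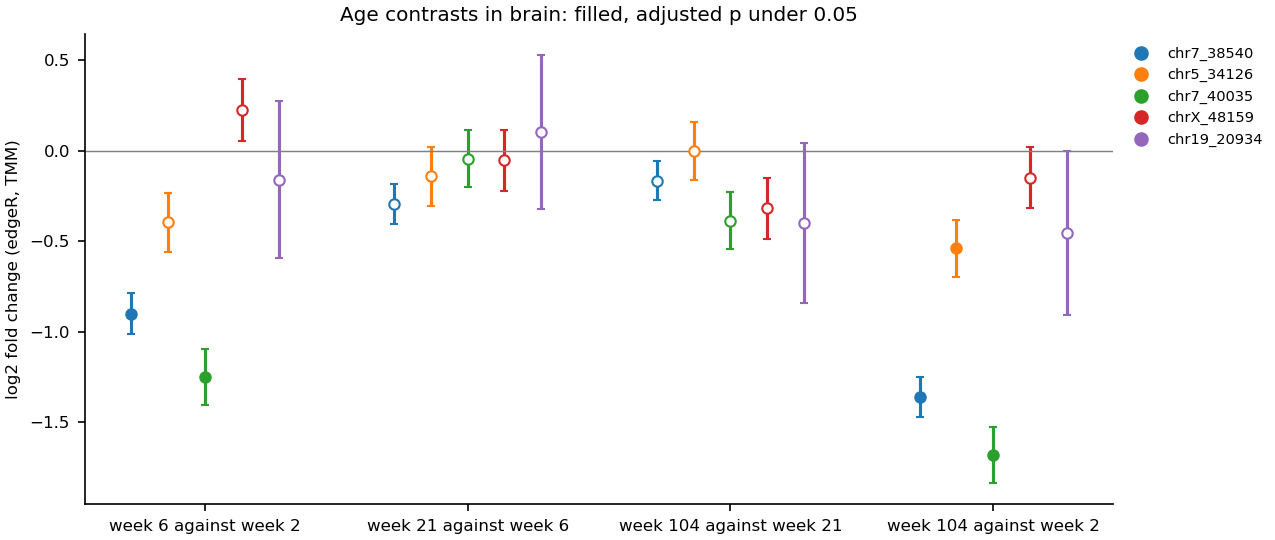
Log2 fold change in brain (vertical axis, edgeR with TMM scaling) of each candidate for 4 age contrasts (horizontal axis). Points are estimates with their standard error, filled where the adjusted p was under 0.05. The filled points are at -0.90 and -1.25 for week 6 against week 2, and at -1.36, -0.54 and -1.68 for week 104 against week 2.

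Read against the whole table, 2 of the 5 candidates passed the test as lower at week 6 than at week 2, where 19.3% of the 616 miRNAs did. With library size scaling, DESeq2, the count minimum or all 32 libraries, which take in the removed week 6 library, it was 3, with rno_miR_chr5_34126 added. None passed between weeks 6 and 21, where 18.5% of all miRNAs passed in either direction, or between weeks 21 and 104, where 2.92% did. The 114 calls over all miRNAs between weeks 6 and 21 became 1 with lane as a covariate, 62 without replicate 1 and 50 without replicate 2 of every group. The 18 between weeks 21 and 104 became 3 without replicate 1 or replicate 2 and 8 without replicate 4. At an unadjusted p under 0.05, edgeR had 1 candidate in each of these later steps, rno_miR_chr7_38540 in the former and rno_miR_chr7_40035 in the latter, and DESeq2 called 1 and 0 after adjustment. For week 104 against week 2, 3 passed as lower at week 104, where 26.0% of all miRNAs did. In CPM, every week 2 library lay above every week 6 library for 2 candidates (14.8% of all miRNAs) and above every week 104 library for 3 candidates (20.1% of all miRNAs).

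The scale matters for the size of these changes. The TMM factors of the brain libraries had a median of 1.25 at week 2 and of 0.885 at week 104, so a level in CPM declines more with age than the same level in the model. On the TMM scale the median log2 fold change of all 616 miRNAs from week 2 to week 104 was 0.07, with 177 called higher and 160 lower. With library size alone the median was -0.33, with 91 called higher and 248 lower. From week 2 to week 6, TMM scaling gave a median of 0.00 with 145 higher and 119 lower, and library size alone gave -0.25 with 82 higher and 197 lower. On TMM-scaled CPM, rno_miR_chr7_38540 (196 to 300 at week 2 and 59.2 to 123 at week 104) and rno_miR_chr7_40035 (36.03 to 73.2 and 10.04 to 16.9) still did not overlap between these ages. On that scale rno_miR_chr5_34126 did overlap, at 29.6 to 55.6 and 10.8 to 34.5. For weeks 2 and 104 the share of all miRNAs without overlap was computed in CPM only.

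Sequencing lane was checked because the libraries of an age were not spread evenly over lanes, and 5 of the 7 week 6 brains were in 1 lane. Weeks 2 and 104 were both present in 5 lanes, with 1 or 2 libraries each. Within these lanes the log2 ratio of CPM at week 104 to week 2 was -2.15 to -1.17 for rno_miR_chr7_38540, -2.50 to -1.68 for rno_miR_chr7_40035 and -1.34 to -0.34 for rno_miR_chr5_34126, lower in 5 of 5 lanes each. For rno_miR_chrX_48159 it was -1.06 to -0.27, also lower in 5 of 5 lanes, and rno_miR_chr19_20934 was lower in 4 of 5. These ratios are not TMM-scaled, and the median TMM factor was 1.25 at week 2 and 0.885 at week 104. A lower ratio can therefore arise without a decline in the model, where rno_miR_chrX_48159 was at -0.15 ± 0.17 (SE). The share of all miRNAs lower in 5 of 5 lanes was not computed. With lane as a covariate the same candidates passed for week 6 against week 2 and for week 104 against week 2. For week 6 against week 2 that fit rests mainly on the 1 shared lane, so age and lane can hardly be told apart there.

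The second question was whether the sexes differ. Over all ages none of the 5 candidates passed the comparison of males with females, in which 0.325% of all miRNAs passed, nor the test of whether the change from week 2 to week 104 differs between the sexes, in which 0.974% passed. At an unadjusted p under 0.05, edgeR had 0 candidates for sex and 1 for the interaction, and DESeq2 had 1 for sex, rno_miR_chr7_38540, and 0 for the interaction. After adjustment DESeq2 called 0 in both. The log2 differences of males over females were 0.14 ± 0.08 (SE) for rno_miR_chr7_38540 (unadjusted p = 0.087 and adjusted p = 0.59 with edgeR) and 0.14 ± 0.11 for rno_miR_chr5_34126 (adjusted p = 0.71). The largest interaction was that of rno_miR_chrX_48159, 0.74 ± 0.34, with an unadjusted p = 0.039 and an adjusted p = 0.33. Its mean was 15.3 CPM at week 2 and 8.91 CPM at week 104 in the females, and 15.3 and 12.3 CPM in the males.

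Among the week 2 brains, every male library lay above every female library in CPM for rno_miR_chr7_38540 and rno_miR_chr5_34126, as it did for 6.82% of all miRNAs. On TMM-scaled CPM, where 3.08% of all miRNAs were apart in this way, 0 of the 5 candidates were, with 226 to 300 in males against 196 to 249 in females for the former and 36.3 to 55.6 against 29.6 to 44.1 for the latter. This comparison was singled out after the values had been seen and was not tested.

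Because the candidates did not decline alike, the third question was whether their proportions within a library change. The log2 ratio of the reads of one candidate to those of another (0.5 added to each count) does not depend on library size or scaling. For the 10 pairs, week 2 was compared with week 104 over 8 libraries each by a two-sided exact permutation test, with Benjamini-Hochberg adjustment over the pairs.

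In all, 4 ratios differed between these ages, and each set a chromosome 7 candidate against rno_miR_chr5_34126 or rno_miR_chrX_48159. The log2 ratio of rno_miR_chr7_40035 to rno_miR_chrX_48159 went from 1.89 ± 0.41 to 0.33 ± 0.55 (SD, n = 8 each, exact adjusted p = 0.0023). For rno_miR_chr7_38540 to rno_miR_chrX_48159 it went from 4.30 ± 0.50 to 3.04 ± 0.41 (exact adjusted p = 0.0023). Thus the reads of the 2 chromosome 7 candidates became fewer relative to those of the chromosome X candidate in the same libraries.

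The log2 ratio of rno_miR_chr5_34126 to rno_miR_chr7_40035 changed sign, from -0.26 ± 0.46 to 0.82 ± 0.52 (exact adjusted p = 0.0035). rno_miR_chr7_38540 to rno_miR_chr5_34126 went from 2.68 ± 0.34 to 1.89 ± 0.37 (exact adjusted p = 0.0035). The 2 chromosome 7 candidates differed less from each other, with a log2 ratio of 2.41 ± 0.27 at week 2 and 2.71 ± 0.31 at week 104 (exact adjusted p = 0.12). The 4 ratios with rno_miR_chr19_20934 had adjusted p-values of 0.13 to 0.99 in this exact test, at SDs of 0.71 to 1.37 per age. With 1 added to each count in place of 0.5, that of rno_miR_chr7_40035 to rno_miR_chr19_20934 passed, with a change of -1.20 (exact adjusted p = 0.046). Without replicate 1 of every group it changed by -1.26 and that of rno_miR_chr7_38540 to rno_miR_chr19_20934 by -1.11 (exact adjusted p = 0.022 each). Within 1 sex no ratio passed, where 4 libraries against 4 allow no exact p below 0.029 before adjustment.

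**Figure D3:**
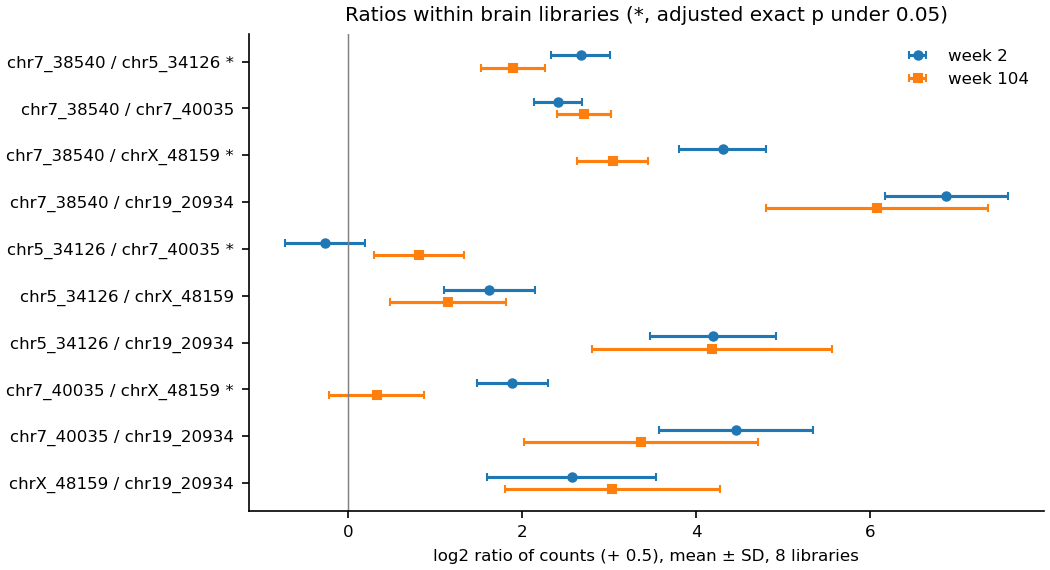
Log2 ratio of the counts of each pair of candidates within brain libraries (horizontal axis, 0.5 added to each count), at week 2 (circles) and week 104 (squares), as mean ± SD of 8 libraries. The 4 pairs with a star differed between the ages, from 1.89 to 0.33 for rno_miR_chr7_40035 over rno_miR_chrX_48159 at most.

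The candidates were next set beside the miRNAs whose brain levels were most like theirs, by Pearson's r of log2(CPM + 1) over the 31 libraries, among miRNAs with a mean brain count of at least 10. The libraries share scale and age, so r is a description. rno_miR_chr7_38540 was most like miR-322-5p (r = 0.962), of a cell cycle miRNA cluster, miR-17-5p (0.961), of a cluster known for cell proliferation, and miR-380-3p (0.954), of the imprinted miRNA cluster between Dlk1 and Dio3. For rno_miR_chr7_40035 the nearest were miR-130a-3p (0.950) and 2 more miRNAs of that imprinted region, miR-431 (0.945) and miR-433-3p (0.936). Without the week 2 libraries these values ran from 0.652 to 0.809 over 23 libraries.

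The nearest to rno_miR_chr5_34126 were miR-92a-3p (r = 0.887), miR-148a-3p (0.882) and miR-410-3p (0.850), and without week 2 they were at 0.655, 0.663 and 0.532. For rno_miR_chrX_48159 the highest values were lower, with miR-379-3p (0.628), the neuronal miR-138-5p (0.616) and miR-124-5p (0.608). rno_miR_chr19_20934 reached 0.598 with miR-342-3p, 0.580 with miR-466c-5p and 0.513 with miR-342-5p, at the low counts given above. Among the candidates themselves, r was 0.925 between rno_miR_chr7_38540 and rno_miR_chr7_40035 and 0.810 between rno_miR_chr7_38540 and rno_miR_chr5_34126, and 0.584 and 0.460 without week 2.

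Known brain miRNAs changed with age in both directions over the same libraries. Of 15 neuronal miRNAs, 8 were higher and 5 lower at week 104 than at week 2 by the edgeR test, where 28.7% of all 616 miRNAs were higher and 26.0% lower. Their median log2 fold change was 0.47 beside 0.07 for all miRNAs. Those with the largest changes were miR-129-1-3p (1.16 ± 0.10, SE), miR-129-2-3p (1.14 ± 0.10) and miR-124-3p (1.12 ± 0.11), all higher in old brain with edgeR adjusted p-values between 7.6e-11 and 1.3e-09, whereas 3 of the 5 candidates were lower. The first 2 are near-identical in sequence and may share reads. On the CPM scale the summed level of the 15 had a median of 126865 at week 2 and 85998 at week 104.

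All 4 myelin miRNAs were higher at week 104 than at week 2, with a median log2 fold change of 1.09. They were led by miR-338-3p (3.25 ± 0.13, SE, from 750.1 to 5033 CPM), miR-338-5p (1.15 ± 0.12) and miR-219a-5p (1.03 ± 0.11), with edgeR adjusted p-values between 5.0e-18 and 4.4e-09. Their summed level ranged from 1632 to 3401 CPM at week 2, from 4211 to 6559 at week 6, from 4599 to 6419 at week 21 and from 6161 to 8824 at week 104. So the candidates that declined did so while myelin miRNAs rose. The part of that change in the candidates' decline was not tested.

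Of 20 markers of other cells that a whole brain can hold, 6 were higher and 1 lower at week 104 than at week 2, with a median log2 fold change of 0.29. The share that was higher was near the 28.7% of all miRNAs. The one that was lower was miR-449a-5p, a miRNA of ciliated and choroid plexus cells, with -4.34 ± 0.29 (SE, edgeR adjusted p = 4.7e-13), from 157 ± 40.5 to 6.96 ± 6.999 CPM (SD, n = 8). The leukocyte miRNAs miR-223-3p (1.03 ± 0.20, adjusted p = 5.6e-05) and miR-150-5p (0.96 ± 0.16, adjusted p = 1.1e-05) were higher. The summed level of the list lay between 29157 and 40254 CPM at week 2 and between 30257 and 42407 at week 104, and none of its markers was at 0 on average. Their part in the candidates' change was not tested.

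Within that list the miRNAs of pituitary and epithelium varied most, with a sum of 273 to 5561 CPM at week 2, 227 to 12752 at week 6, 8741 to 27185 at week 21 and 169 to 12103 at week 104. The 4 ages overlapped except that week 21 lay above week 2. Of the 7 candidates that the study assigned to other organs, brain levels were 0.00858 to 2.03 CPM, and 1 passed the test from week 2 to week 104. It was rno_miR_chr12_11512, which was higher at week 104 by 1.59 ± 0.57 in log2 (SE, edgeR adjusted p = 0.021), from 0.582 to 1.297 CPM. The highest of the 7, at 2.03 CPM, was rno_miR_chrX_48468, so rno_miR_chr19_20934 was not above it in brain.

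Across organs, brain held 96.6% of all reads of rno_miR_chr7_38540, 96.5% of rno_miR_chrX_48159, 93.0% of rno_miR_chr7_40035, 91.7% of rno_miR_chr5_34126 and 60.1% of rno_miR_chr19_20934. The organ with the next mean level differed between them. It was spleen for rno_miR_chr7_38540 (4.20 CPM, 36.9-fold below brain), kidney for rno_miR_chr5_34126 (0.506 CPM, 61.7-fold), testis for rno_miR_chr7_40035 (1.13 CPM, 23.9-fold), lung for rno_miR_chrX_48159 (0.198 CPM, 67.7-fold) and testis for rno_miR_chr19_20934 (0.571 CPM, 3.31-fold). Being brain candidates by selection, they had to lead in brain, so these values are no evidence for it.

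For 4 candidates the lowest brain library lay above the highest of the 287 libraries of other organs. Their choice on brain in these same libraries favours such a gap, and the share of all miRNAs with one was not computed. The gap was narrow for rno_miR_chr7_40035, at 8.10 CPM in the lowest brain and 7.36 CPM (25 reads) in a week 2 testis. It was wider for rno_miR_chr7_38540, at 66.1 against 19.0 CPM (34 reads) in a week 2 spleen, and for rno_miR_chr5_34126, at 12.0 against 1.74 CPM (2 reads). For rno_miR_chrX_48159 the lowest brain had 5.20 CPM and the highest other library 3.17 CPM, from 1 read in a small liver library. rno_miR_chr19_20934 was not apart, since 81 of the 287 other libraries lay above its lowest brain library, which had no read.

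**Figure D4:**
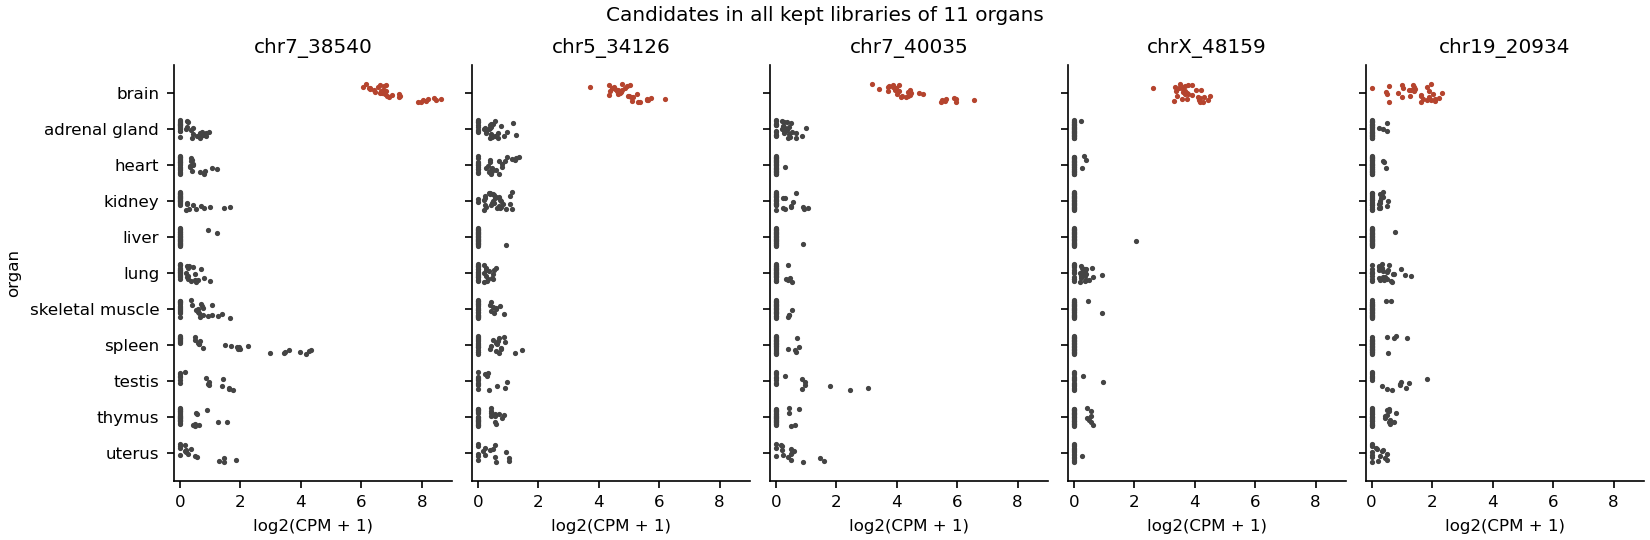
Levels of the 5 candidates in all kept libraries as log2(CPM + 1) (horizontal axis), by organ (vertical axis), with brain in red. Each point is a library. Brain stands apart for the first 4 candidates, and for rno_miR_chr19_20934 its range of 0 to 3.99 CPM overlaps the other organs, where the highest library was at 2.53 CPM in testis.

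Outside brain the candidates had few reads, so most of their values rest on single reads. rno_miR_chrX_48159 had 47 reads in the 287 libraries together, 29 of them in lung, where 20 of 32 libraries had at least 1. It had 0 reads in 32 kidney libraries of 144377326 reads in all, which allows a level of up to 0.0208 CPM over the organ, and 0 reads in 31 spleen libraries of 57748414 reads, which allows up to 0.0519 CPM. These limits of 3 reads cover counting error only. rno_miR_chr19_20934 had 121 reads outside brain, of which 50 were in lung, with at least 1 read in 24 of 32 lung libraries and at most 5 in any.

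rno_miR_chr5_34126 was spread thinly over several organs. Kidney had 71 reads, with at least 1 in 30 of 32 libraries and 0.506 ± 0.326 CPM (SD, n = 32), heart had 41 reads and adrenal gland 40. Liver, the organ with the smallest total, had 1 read. By age its reads outside brain, over all libraries of an age, came to 0.379 CPM at week 2 and to 0.229, 0.282 and 0.264 CPM at the later ages.

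For the chromosome 7 candidates, most reads outside brain also came from week 2. Of the 492 reads of rno_miR_chr7_38540 outside brain, 362 were from week 2, 82 from week 6, 31 from week 21 and 17 from week 104. Over all reads of these libraries that is 1.62, 0.391, 0.141 and 0.0691 CPM. Its mean level was highest at week 2 in 8 of the 10 other organs, with heart and liver as the exceptions. Likewise rno_miR_chr7_40035 had 119 of 176 reads at week 2 and was highest there in 8 of 10 organs. rno_miR_chr5_34126 was highest at week 2 in 7 of 10 organs, close to the chromosome 7 candidates, and rno_miR_chrX_48159 and rno_miR_chr19_20934 in 3 each.

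Spleen held 244 of the reads of rno_miR_chr7_38540 outside brain, and nearly all of them came from the younger ages. Week 2 spleens had 11 to 35 reads, or 6.97 to 19.0 CPM with a median of 12.96. At week 6 they had 1 to 9 reads (0.691 to 3.75 CPM), at week 21 at most 1 read (up to 0.573 CPM), and at week 104 the 7 libraries had 1 read in all. Week 2 lay above all later kept spleens, a comparison that was not made over all miRNAs. The lowest library of week 6 and the highest of week 21 had 1 read each. Their order in CPM therefore reflects library size only. Mean levels were 13.4 ± 4.45, 2.47 ± 0.918, 0.325 ± 0.274 and 0.0596 ± 0.158 CPM (SD), and these differences were not tested because age outside brain was fixed as a description.

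The neuronal miRNAs had another order of ages in spleen. The 15 neuronal miRNAs summed to a median of 919 CPM at week 2 and to 1095, 1258 and 1222 CPM at weeks 6, 21 and 104 in spleen, and none of the age ranges stood apart. Outside brain this list is not confined to neurons, since its member miR-128-3p averaged 4816 CPM in thymus. The sum is therefore no measure of neural tissue in spleen. miR-124-3p was at 2.08 to 11.4 CPM in week 2 spleens and at 2.26 to 31.9 CPM in those of week 104. For each read of miR-124-3p there were 2.14 reads of rno_miR_chr7_38540 in week 2 spleens, against 0.0396 in week 2 brains. The study found the RNA of the youngest spleens to be less intact than that of its other samples, and the part of this in the values was not tested.

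Testis, uterus and kidney had the same order at lower levels. For rno_miR_chr7_38540 the 4 testes of week 2 had 5 to 8 reads (1.66 to 2.38 CPM) and those of week 104 had 1 read in all, with 1 week 21 testis at 1.68 CPM inside the week 2 range. In uterus the 4 libraries of week 2 had 5 to 10 reads (1.47 to 2.60 CPM), and all later libraries had at most 3 (up to 0.477 CPM). Kidney had 36 reads at week 2, with at least 1 in each of 8 libraries, 4 reads at week 6 and none at weeks 21 and 104.

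rno_miR_chr7_40035, which carries a piRNA alert, was seen outside brain mainly in testis and uterus. The 4 testes of week 2 had 2 to 25 reads (0.838 to 7.36 CPM, mean 3.79 ± 2.81, SD), and every later testis had at most 1 read. The range at week 2 overlaps that of week 6, where 1 read made up to 0.956 CPM in small libraries. Uterus had 1 to 14 reads at week 2 (0.433 to 2.05 CPM) and 2 reads in 4 libraries at week 104, and here weeks 2 and 21 overlapped. In kidney 20 of its 26 reads were from week 2.

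**Figure D5:**
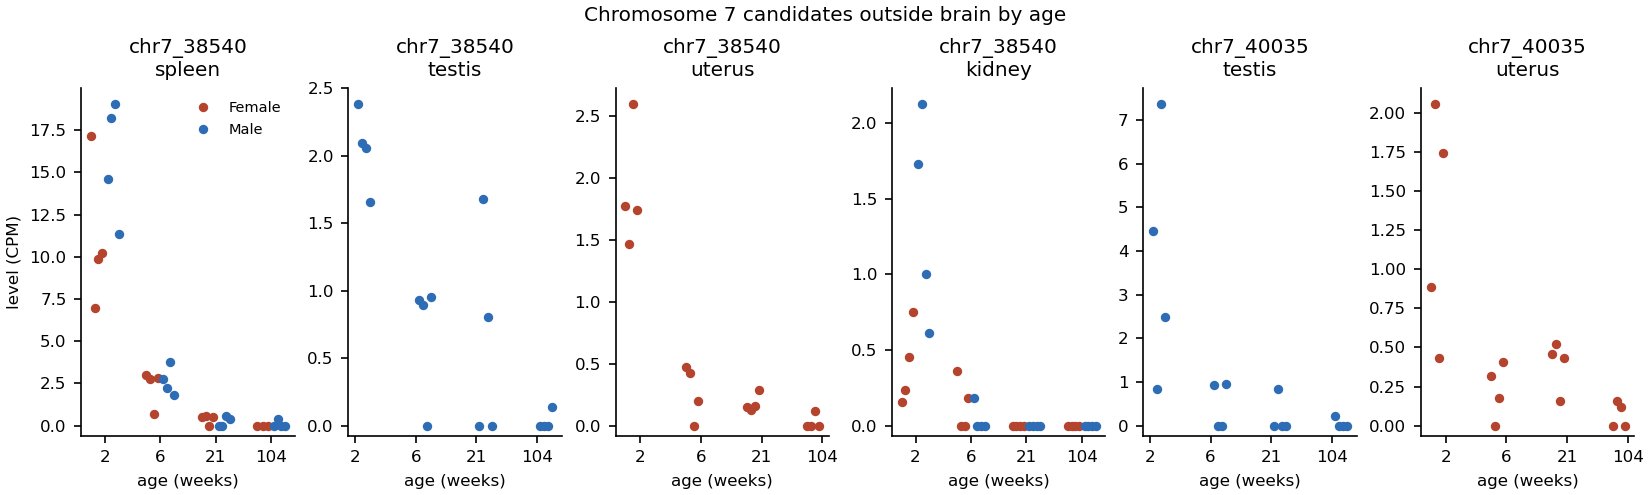
Levels in CPM (vertical axes, linear) of the chromosome 7 candidates in organs other than brain at 2, 6, 21 and 104 weeks, with a point per library, red for females and blue for males. In spleen rno_miR_chr7_38540 goes from 6.97 to 19.0 CPM at week 2 to at most 0.417 CPM at week 104.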

How the data were processed

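The authors trimmed the reads with fastp 0.23.2, aligned them with Bowtie 1.3.1 to miRBase and other transcript collections and to the genome (rn7), and found candidates with miRDeep2 on pooled reads. They deposited raw counts per miRNA, and miRNAs with a low mean count had been removed. How reads that fit several miRNAs were assigned is not given in the sources used here. From these counts, CPM was computed with column totals. Brain was fitted with edgeR 4.0.16 in R 4.3.3 (quasi-likelihood, TMM, 8 groups of sex and age, 31 libraries, 616 miRNAs), and an adjusted p under 0.05 was called. DESeq2 1.42.0 was an alternative. Lanes came from the study's sample table. There replicate 2 of the week 6 female brains carries a file name of muscle in lane 8. The muscle library of the same sex, age and number carries a file name of brain. The lane in the listed name was used, and the table gives no reason for the exchange. On counts simulated for week 104 against week 2, edgeR recovered 188 of 200 changed miRNAs with 7 false calls. Recovery at the fold changes of the candidates was not tested. Replicates were separate rats, and the 45 replicate pairs compared in brain differed by at least 14.9 in chi-square per degree of freedom. Ratios, levels and figures used Python 3.11.15, NumPy 2.4.6, pandas 2.3.3, SciPy 1.17.1 and matplotlib 3.10.9. The members, lists and tests were chosen with earlier results of these data known. Named were the 5 candidates, the 3 miRNAs most like each, and up to 3 called miRNAs per list with the largest change from week 2 to week 104.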

Additional observations from a re-analysis of the deposited data

Results flagged for a closer look

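In 43 groups of 4 libraries, the highest and the lowest value were compared with the rest (5 candidates in 7 groups of brain, and at week 2 rno_miR_chr7_38540 in spleen, kidney, testis and uterus and rno_miR_chr7_40035 in testis and uterus). Chance sets apart about 1 group in 20. One value stood apart, that of rno_miR_chr5_34126 in replicate 4 of the week 21 female brains, which was low at 19.6 CPM beside 24.7 to 25.5 CPM in the other 3.

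The spleen library that the study removed, replicate 4 of the week 104 females, held reads of the candidates that the other 3 libraries of its group did not. It had 13.5 CPM of rno_miR_chr7_38540 (116 reads), 2.33 CPM of rno_miR_chr5_34126 (20 reads), 1.86 CPM of rno_miR_chr7_40035 (16 reads) and 0.581 CPM of rno_miR_chrX_48159 (5 reads), where the others had 0 reads each. No other spleen library had any read of rno_miR_chrX_48159. The study removed this library because it clustered with uterus, so these reads cannot be taken as those of an aged spleen.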

How the results depend on the processing

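Each result was recomputed with library size only, with DESeq2, among miRNAs with a mean brain count of at least 10 (which leaves out rno_miR_chr19_20934), with all 32 brain libraries, with lane as a covariate, with the replicate number as a block, and without single replicates, and the ratios also with 1 added to each count. For week 104 against week 2 and week 6 against week 2, both chromosome 7 candidates passed under every setting, and 3 candidates in place of 2 passed for the latter with library size only, DESeq2, the count minimum and all 32 libraries. The last of these takes in the removed week 6 library, which was low for rno_miR_chr5_34126. For week 21 against week 6, 1 candidate passed in place of 0 with library size only, with DESeq2 and with the count minimum. Leaving out replicates gave 2 to 3 candidates called for week 6 against week 2, 2 to 3 for week 104 against week 2, 0 to 0 for the other 4 comparisons, and 4 to 6 ratios in place of 4. The labels' numbers did not pair the libraries (39 of 105 same-numbered pairs correlated over 0.1, and 9 of 31 libraries correlated best with their own number), and with the replicate block the counts of candidates stayed at 2, 0, 0, 3, 0 and 0. With 1 sex alone 0 ratios passed.

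All directions that turned belonged to values that did not pass the test. With library size only, rno_miR_chrX_48159 was -0.048 for week 6 against week 2, rno_miR_chr19_20934 -0.066 for week 21 against week 6, rno_miR_chr5_34126 0.0066 for week 104 against week 21, and the interactions of rno_miR_chr7_38540 and rno_miR_chr5_34126 -0.11 and -0.14. With the count minimum these interactions were -0.044 and -0.076, and rno_miR_chr7_40035 between the sexes was 0.022 (0.0036 with DESeq2). With all 32 libraries, rno_miR_chr7_40035 was 0.014 for week 21 against week 6 and the interaction of rno_miR_chr19_20934 was 0.010. With lane, rno_miR_chr5_34126 and rno_miR_chr7_40035 were 0.16 and 0.11 for week 21 against week 6. In males the log2 ratio of rno_miR_chr5_34126 to rno_miR_chr19_20934 changed by 0.18.

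Without single replicates, rno_miR_chr19_20934 ranged from -0.69 to 0.059 (week 6 against week 2), -0.019 to 0.25 (week 21 against week 6), -0.81 to 0.019 (week 104 against week 21), -0.054 to 0.43 (sex) and -0.44 to 0.27 (interaction), and its ratio under rno_miR_chr5_34126 from -0.37 to 0.43. rno_miR_chr5_34126 ranged from -0.26 to 0.056, -0.13 to 0.079 and, for the interaction, -0.36 to 0.46. rno_miR_chr7_40035 ranged from -0.13 to 0.045 (week 21 against week 6) and -0.029 to 0.079 (sex), rno_miR_chrX_48159 from -0.16 to 0.064 (week 21 against week 6) and the interaction of rno_miR_chr7_38540 from -0.081 to 0.11.

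Over all 616 miRNAs, lane as a covariate left 110 calls of 264 for week 6 against week 2 and 1 of 114 for week 21 against week 6, and leaving out replicates gave 50 to 115 for the latter, 3 to 26 in place of 18 for week 104 against week 21, and 0 to 1 in place of 6 for the interaction. For week 104 against week 21, 18 calls became 33 with DESeq2, 11 with lane and 0 with all 32 libraries (79 at an unadjusted p under 0.05). For sex 2 calls became 6 with DESeq2 and 4 with lane, and for the interaction 6 became 20 with DESeq2, 12 with the count minimum and 2 with library size only. With TMM scaling over all organs, the mean brain levels of rno_miR_chr5_34126 and rno_miR_chrX_48159 were 17.3 and 7.48 CPM, and with all 320 libraries rno_miR_chrX_48159 was at 0.0182 CPM in spleen. Few reads stand behind rno_miR_chr19_20934 in brain and behind all candidates elsewhere. The causes were not tested.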

Other observations

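The brain library that the study removed, replicate 3 of the week 6 males, had 59.5 CPM of rno_miR_chr7_38540, 13.4 of rno_miR_chr5_34126, 12.2 of rno_miR_chr7_40035 and 7.76 of rno_miR_chrX_48159. Each is below the other 3 libraries of its group, which were at 109 to 150, 19.4 to 37.8, 14.95 to 28.4 and 11.9 to 14.2 CPM. rno_miR_chr19_20934 was at 0.913 CPM, within the 0.415 to 3.10 CPM of its group.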
